A study of Mus musculus with 9 samples.

Results

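Potassium channel genes were followed in the salivary glands of lean mice, of obese mice and of obese mice that had undergone stomach surgery. The members were all protein-coding genes of the deposited count table whose symbol begins with Kcn and that had a count of at least 10 in at least 3 of the 9 libraries. The rule took 44 of the 83 protein-coding Kcn genes, out of 17509 protein-coding genes and 23256 genes in all. By symbol, 16 members are pore subunits of voltage-gated channels, 8 belong to calcium- or sodium-activated channels, 7 are inward rectifiers, 6 are tandem-pore-domain channels (the Kcnk genes, whose subunits each carry a pair of pore loops), and 7 are auxiliary subunits.

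The libraries were made from polyA RNA of the submandibular and sublingual glands of female C57BL/6 mice aged 34 weeks. Control mice (n = 3 libraries) received chow. Mice of the diet-induced obese group (DIO, n = 3) were given, from 4 weeks of age and for 20 weeks, a diet in which fat supplied 60% of the calories. Mice of the sleeve gastrectomy group (SG, n = 3) were obese mice of that kind in which about 80% of the greater curvature of the stomach was removed at 24 weeks of age, under 2% isoflurane and after a fast of 12 h. A sham-operated group and the feeding after surgery are not described in the labels, so surgery, anaesthesia, fasting and any change of feeding cannot be told apart. A diet start at 4 weeks of age and 20 weeks of diet are recorded for the control libraries as well. The feeding from then to 34 weeks of age is thus not given for control and DIO mice either. Whether 1 library stands for 1 animal is not stated either, and the p-values then measure only the spread between these libraries, which may be technical.

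Potassium channels let potassium leave the cell and hold the membrane potential negative. In salivary acinar cells, a muscarinic stimulus raises cytosolic calcium, which opens calcium-activated potassium channels on the basolateral side and chloride channels on the apical side. The potassium current sustains the driving force for chloride exit, and water follows. Duct cells reabsorb sodium and chloride and secrete potassium into the saliva. Kcnk6 encodes TWIK2, a tandem-pore-domain background channel related to TWIK1, the product of Kcnk1.

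What the pore-forming members share is the selectivity filter, in which a glycine, an aromatic or other bulky residue and a second glycine line the narrowest stretch of the pore. The coding sequences of GENCODE M21 were searched, in frame and on the coding strand, for a serine or threonine codon, a codon for 1 of several small or branched residues (V, I, T, L, M, A, C or S), a glycine codon, a tyrosine, phenylalanine or leucine codon, and a glycine codon. A match was found in 36 of the 44 members (81.8%), against 576 of 21739 genes with a coding sequence (2.65%). It was found in 16 of 16 voltage-gated members, 7 of 7 inward rectifiers, 6 of 6 tandem-pore-domain members and 7 of 8 calcium- or sodium-activated members, Kcnmb1, a beta subunit that forms no pore, being the eighth. None of the 7 auxiliary members had a match. The 6 Kcnk genes each had 2 matches. Kcnh2, a voltage-gated member, also had 2, with leucine in the middle at codon 603 and phenylalanine at codon 628. A match alone does not show a pore loop. The stretches below, of 30 bases and written 5′ to 3′ with the glycine, middle and glycine codons in capitals, are shown for the tandem-pore-domain genes with the highest levels, where the first and the second pore loop can be compared.
Kcnk6, first pore loop: accaccgtgGGCTATGGCtacacgacccca
Kcnk6, second pore loop: tccaccattGGCCTAGGGgactacgtgcct
Kcnk1, first pore loop: tccaccacaGGCTATGGCcacacggtgccc
Kcnk1, second pore loop: agcaccatcGGCCTGGGGgactatgttcca
Kcnk5, first pore loop: accaccatcGGTTATGGCaatgtggctccc
Kcnk5, second pore loop: tccaccattGGCTTTGGGgactttgtggcc
In Kcnk6 the first glycine of the filter is codon 108 in the first loop and codon 216 in the second, of 313 codons. The middle codon encodes tyrosine in the first loop of all 3 genes. In the second loop it encodes leucine in Kcnk6 and Kcnk1 and phenylalanine in Kcnk5. A calcium-activated channel and an inward rectifier, which carry 1 pore loop per subunit, are shown for comparison, and both filters have tyrosine in the middle.
Kcnma1: tctacagtgGGTTATGGGgacgtttatgca
Kcnj16: accaccattGGATACGGTtaccgctgtgtc
A match describes these letters and is not a measurement of channel function.

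Levels between genes were compared as FPKM (fragments scaled to transcript length and to the mapped fragments of the library), as deposited by the authors. One gene held most of the signal. Kcnn4, which encodes the intermediate-conductance calcium-activated potassium channel of salivary acinar cells, averaged 212 FPKM over the 9 libraries, 15.9 times the next member. It made up 64.1% to 77.8% of the summed FPKM of the members in each library, and the other 43 members summed to 81.6 FPKM. Kcnma1, the pore subunit of the large-conductance calcium-activated (BK) channel, averaged 6.38 FPKM. The sodium-activated channel gene Kcnt1 averaged 2.58 FPKM.

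Among the tandem-pore-domain genes, Kcnk1 averaged 13.3 FPKM, Kcnk6 7.69 FPKM and Kcnk5 7.34 FPKM. Kcnk5 encodes TASK2, a channel opened by alkaline pH. Kcnk6 spanned 5.20 to 10.2 FPKM over the 9 libraries and Kcnk5 5.93 to 9.34 FPKM, so these neighbours in the order overlapped. Kcne1, a single-span auxiliary subunit of the Kcnq1 channel, averaged 12.0 FPKM and Kcnq1 itself 6.63 FPKM. Of the inward rectifiers, which pass potassium more readily into the cell than out of it, Kcnj16 averaged 5.26 FPKM, Kcnj15 3.64 FPKM and Kcnj8, a pore subunit of ATP-sensitive channels, 2.74 FPKM. Kcnip3, a calcium-binding protein that associates with channels of the Kcnd family and also acts in the nucleus, averaged 3.02 FPKM.

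In all, 8 members averaged 5 FPKM or more, 6 averaged 1 to 5, 20 averaged 0.1 to 1, and 10 averaged under 0.1 FPKM. Per subfamily, the mean levels summed to 223 FPKM for calcium- or sodium-activated genes, 29.5 for tandem-pore-domain, 18.4 for auxiliary, 12.5 for inward rectifier and 10.7 for voltage-gated genes. The 16 voltage-gated members were thus the largest subfamily by number and the smallest by summed level. Among the lowest members were Kcnt2 (0.0220 FPKM), Kcnn3 (0.0245 FPKM), Kcnd1 (0.0358 FPKM) and Kcnab1 (0.0434 FPKM). Kcnd1, Kcnn3 and Kcnt2 lay just inside the count rule with 3 libraries at 10 counts or more, and Kcng3, Kcng4, Kcnip1 and Kcnj12 lay just outside with 2.

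**Figure D1:**
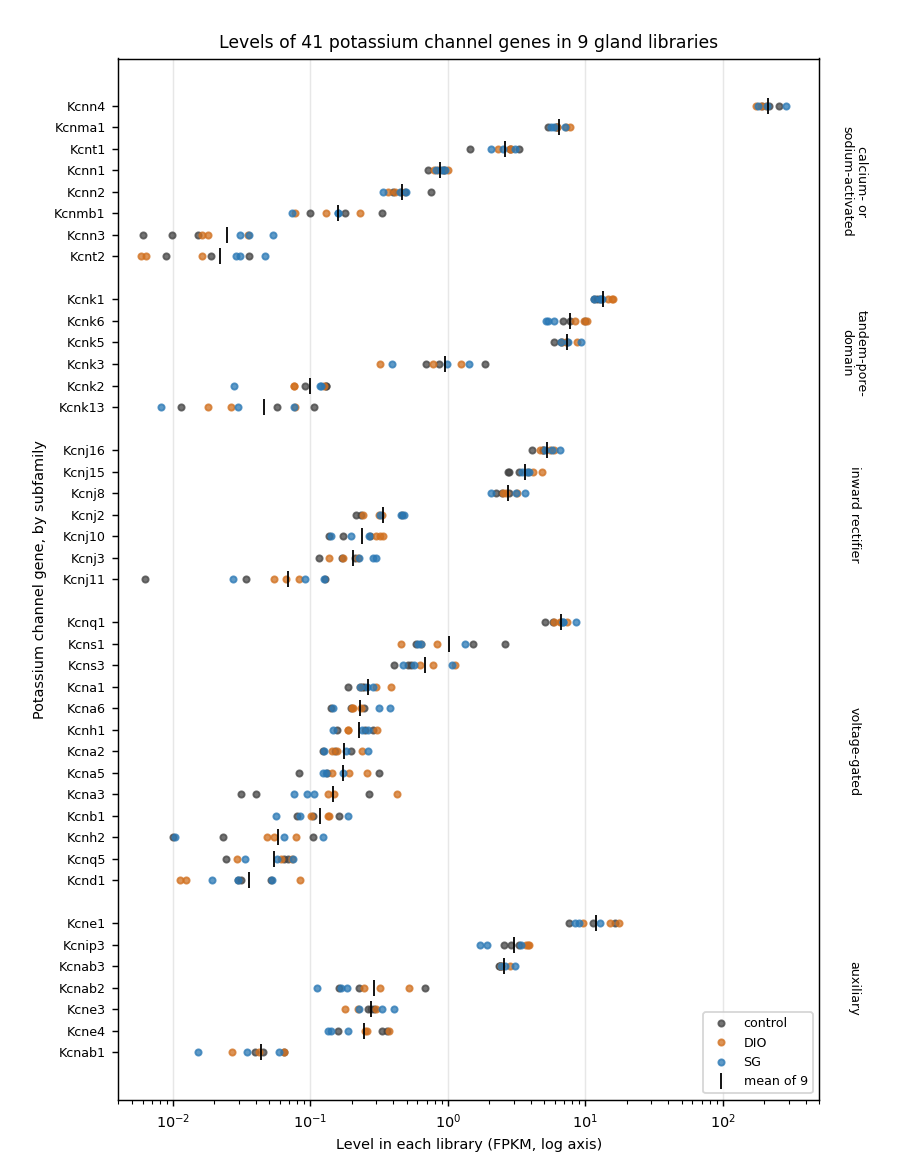
Level of 41 of the 44 potassium channel genes in each library, in FPKM on a log axis, grouped by subfamily. Points are the 9 libraries (3 control, 3 DIO, 3 SG) and the vertical tick is their mean; Kcnn4 stands alone at the right at 175 to 290 FPKM, and the lowest members lie under 0.1 FPKM.

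Total counts per library ran from 36349885 to 43495564, and the members took 0.0805% to 0.103% of them. A count of 3 corresponded to 0.0676 to 0.0833 CPM (counts scaled to the library's total). CPM here use totals corrected by the trimmed mean of M values (TMM), which allows for differences in composition. Control replicate 2 stood apart from the other libraries, with a mean Spearman correlation to the other 8 of 0.973 against 0.985 to 0.987 for the rest. All 6 serous acinar markers (Aqp5 and Lpo among them) and all 9 duct markers (such as Klk1 and Egf) had at least 3 counts in each library, as the labelled tissue calls for, and of 5 markers chosen for parotid gland, which the label does not name, the 4 in the table did too. In the tests described below, these 4 parotid markers were all lower in DIO than in control (median log2 fold change -2.31, 2 without overlap). All 4 were higher in SG than in DIO (median 1.21), each with overlap. None had an adjusted p under 0.05. Their sum was lowest in DIO replicate 1 (40360 CPM) and highest in SG replicate 3 (66210 CPM). The part of parotid tissue in the channel values was not tested. The median coefficient of variation between replicates was 27.6% for the members and 13.4% over all 14912 genes tested. These sets were not matched for level, and many members are low. For Kcnn4, Kcnk1, Kcne1 and Kcnk6, ranked 1 to 4 by FPKM, it was 17.6%, 7.55%, 27.7% and 10.5%.

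Each comparison was tested with edgeR's quasi-likelihood F test in 1 model of all 9 libraries. The log2 fold change is given with its standard error (SE), and adjusted p stands for Benjamini-Hochberg adjustment over the 14912 genes that passed the filter on low counts, with 0.05 as the threshold. All 44 members passed that filter. The 3 comparisons share libraries in pairs, so they are not independent of each other.

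The first comparison asked how the glands of obese mice differed from those of controls. Kcnj15, an inward rectifier subunit, had 18.9, 17.4 and 22.1 CPM in the control libraries and 28.2, 23.5 and 27.5 CPM in the DIO libraries. All 3 DIO values lay above all 3 control values. The log2 fold change was 0.44 (SE 0.11) with an adjusted p of 0.212, the smallest of any member. In RNA of whole glands, fewer cells that express a gene and less of its RNA per cell cannot be told apart. Kcnk1 had 67.5, 65.2 and 71.7 CPM in controls and 76.2, 76.4 and 89.8 CPM in DIO, again without overlap. Its log2 fold change was 0.25 (SE 0.09, adjusted p = 0.403).

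Kcns1, which encodes an electrically silent subunit that modifies Kcnb channels, had 1.97, 8.11 and 5.003 CPM in controls and 1.31, 2.52 and 2.09 CPM in DIO. Control replicate 1 lay inside the DIO range and control replicate 2 was the highest, and the log2 fold change was -1.35 (SE 0.47, adjusted p = 0.360), or -0.85 without control replicate 2. Kcns3, a silent subunit of the same kind, averaged 1.59 ± 0.286 CPM (SD, n = 3) in controls and 2.60 ± 0.955 CPM in DIO, with a log2 fold change of 0.71 (SE 0.35, adjusted p = 0.526), or 0.37 without DIO replicate 3.

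Of the calcium-activated channels, Kcnn4 had 455, 371 and 524 CPM in controls and 311, 355 and 418 CPM in DIO. The groups overlapped, with a log2 fold change of -0.32 (SE 0.18, adjusted p = 0.583), or -0.19 without control replicate 3. Kcnma1 averaged 107 ± 13.1 CPM in controls and 119 ± 4.71 CPM in DIO (SD, n = 3), a log2 fold change of 0.16 (SE 0.12). The background channel gene Kcnk6 averaged 34.0 ± 5.39 CPM in controls and 37.0 ± 1.31 CPM in DIO, a log2 fold change of 0.12 (SE 0.11, adjusted p = 0.766).

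No member passed the threshold between DIO and control (0 of 44 by edgeR and 0 by DESeq2), where 0.0939% of all genes tested did by edgeR and 1.3% by DESeq2. At an unadjusted p under 0.05 there were 4 members, against 10.3% of all genes. The groups did not overlap for 7 members, 6 higher and 1 lower in DIO, against 16.3% of all genes. These shares of the members, 9.09% and 15.9%, are near those of all genes. Fitted levels in DIO were higher for 24 members and lower for 20 (30 and 14 when scaled to library totals), and the members' median log2 fold change was 0.02, against 0.01 over all genes. Without control replicate 2, 7 members had an unadjusted p under 0.05 (13.8% of all genes) and 13 did not overlap (32.2% of all genes).

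**Figure D2:**
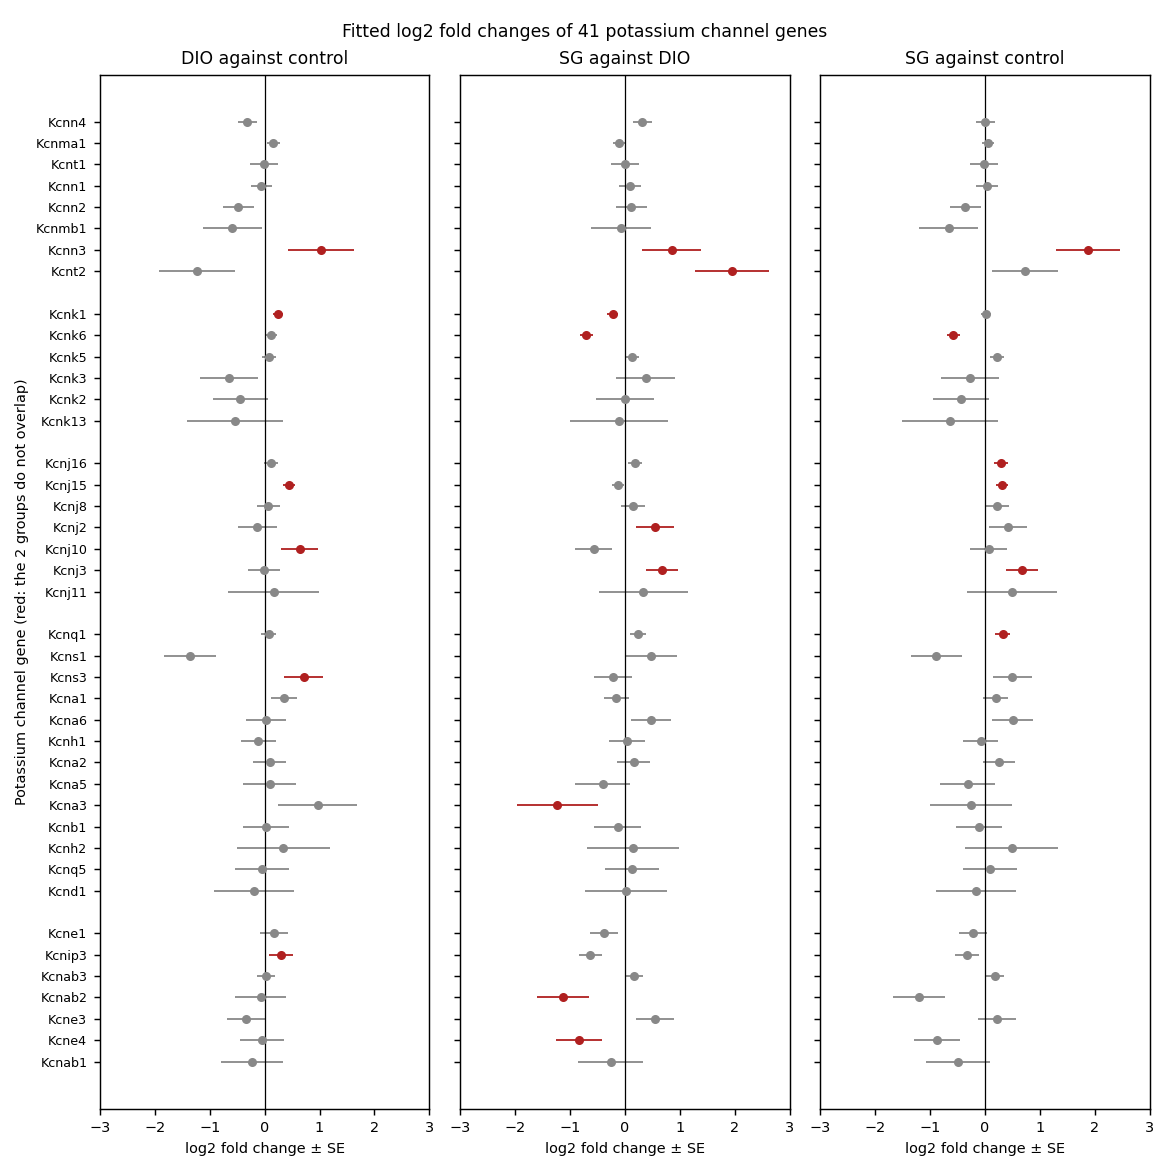
Fitted log2 fold change of 41 of the 44 potassium channel genes in the 3 comparisons, with bars of 1 SE, grouped by subfamily and ordered by level within it. Red marks genes whose 3 libraries in 1 group do not overlap the 3 of the other (6, 9 and 6 of the genes drawn, from left to right); bars widen toward the low genes at the foot of each block.

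The second comparison asked how the glands of operated mice differed from those of obese mice, and here Kcnk6 stood first among the members. Kcnk6 had 37.7, 37.8 and 35.5 CPM in the DIO libraries and 24.6, 20.95 and 22.8 CPM in the SG libraries. The 3 SG libraries were the lowest 3 of all 9, and the DIO libraries lay close together. The means were 37.0 ± 1.31 CPM in DIO and 22.8 ± 1.84 CPM in SG (SD, n = 3). The fitted SG level was 0.616 of the DIO level, a log2 fold change of -0.70 (SE 0.11). Its p of 7.47e-05 was the ninth smallest (rank 9 of 14912 genes) and its adjusted p was 0.116, which does not pass the threshold.

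The call for Kcnk6 depended on the fit. Over 15 alternative fits the log2 fold change ran from -0.78 to -0.63 and the adjusted p from 0.000198 to 0.482. The adjusted p was under 0.05 in 4 of them: 0.000198 with DESeq2, 0.0162 when only the 2 groups compared were fitted, 0.0217 without control replicate 2, and 0.0436 with no filter on low counts. No exon of Kcnk6 overlaps another gene in GENCODE M21.

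**Figure D3:**
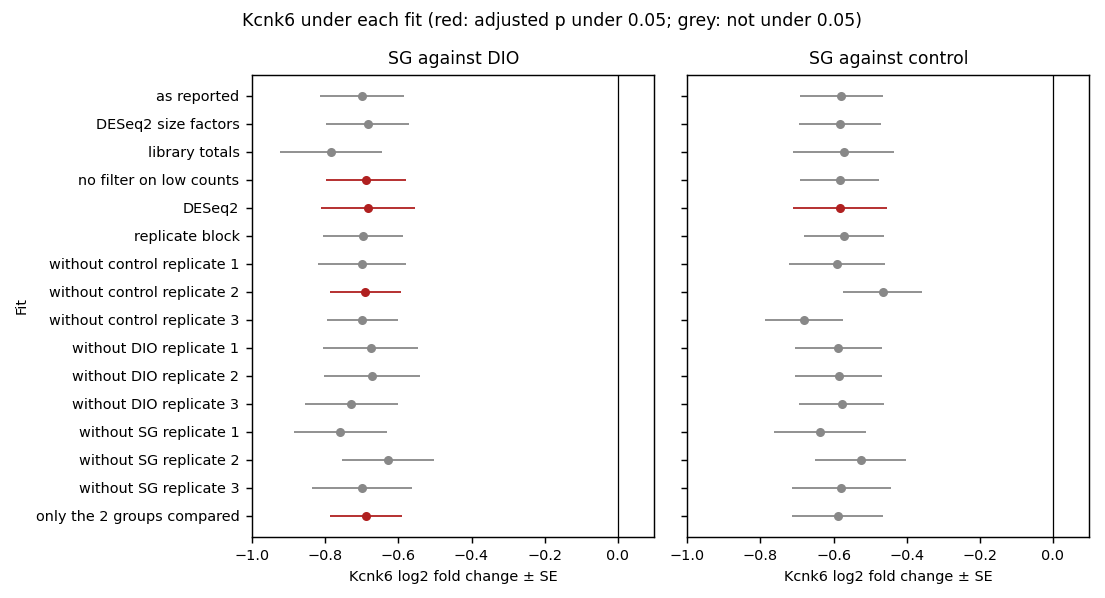
Log2 fold change of Kcnk6 with bars of 1 SE in the fit as reported and in 15 alternatives, for SG against DIO (left) and SG against control (right). Red marks an adjusted p under 0.05 (4 alternatives at left, DESeq2 alone at right); every estimate lies below 0, from -0.78 to -0.63 at left and from -0.68 to -0.47 at right.

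The paralogue Kcnk1 had 76.2, 76.4 and 89.8 CPM in DIO and 64.2, 68.9 and 74.3 CPM in SG. The groups did not overlap, and the log2 fold change was -0.22 (SE 0.09, adjusted p = 0.532). The SG values of Kcnk1 lay around those of controls, which Kcnk6 values did not. Kcnk5 pointed the other way, with 33.7, 28.1 and 32.3 CPM in DIO and 29.7, 38.9 and 35.0 CPM in SG, and its groups overlapped (log2 fold change 0.14, SE 0.13, adjusted p = 0.796). The other 3 tandem-pore-domain members, Kcnk2, Kcnk3 and Kcnk13, had log2 fold changes of -0.0031, 0.38 and -0.11, each with an SE over 0.5.

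Kcnip3 had 20.0, 21.9 and 24.2 CPM in DIO and 20.7, 11.0 and 11.0 CPM in SG. SG replicate 1 lay inside the DIO range and the other SG libraries lay below it, with a log2 fold change of -0.63 (SE 0.21, adjusted p = 0.470). Without SG replicate 1 the log2 fold change was -1.003, and over all alternatives the adjusted p ran from 0.0536 to 0.857. Kcnt2, a sodium-activated channel gene, had 2, 5 and 2 counts in DIO and 16, 9 and 10 in SG. All SG values lay above all DIO values, but 2 DIO libraries lay under 3 counts, and the log2 fold change of 1.96 (SE 0.67, adjusted p = 0.472) rests on these few counts. No DIO library of Kcnt2 reached the 10 counts of the rule, so this difference too is only a description.

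Kcnn4 had 365, 548 and 440 CPM in SG against 311, 355 and 418 CPM in DIO. The groups overlapped, with a log2 fold change of 0.32 (SE 0.18, adjusted p = 0.640), or 0.17 without SG replicate 2. Kcnma1 averaged 111 ± 14.4 CPM in SG and 119 ± 4.71 CPM in DIO (log2 fold change -0.10, SE 0.12). Kcnq1 and Kcne1, partners in 1 channel, had log2 fold changes of 0.24 (SE 0.14) and -0.38 (SE 0.26), and both overlapped between the groups.

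**Figure D4:**
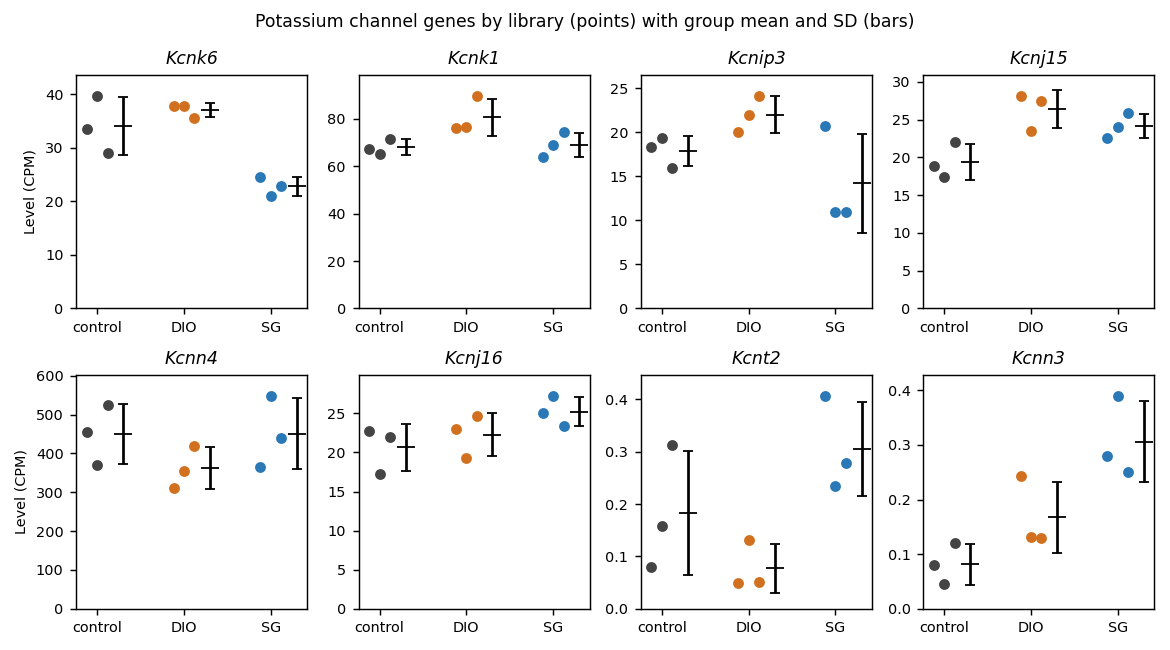
Level in CPM of 8 potassium channel genes in each library (points) with the group mean and SD (bars); each panel starts at 0 and has its own scale. Kcnk6 in SG (20.95 to 24.6 CPM) lies below every other library, and Kcnn4 overlaps in all 3 groups.

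No member passed the threshold between SG and DIO by edgeR (0 of 44, where 0% of all genes did). By DESeq2 1 passed, Kcnk6, where 0.577% of all genes did. At an unadjusted p under 0.05 there were 7 members (15.9%) against 8.93% of all genes, with Kcnk6, Kcnip3, Kcnt2, Kcnab2, Kcnk1 and Kcnj3 among them. The groups did not overlap for 11 members (25%) against 16.3% of all genes. Of these, 5 were higher in SG, Kcnt2, Kcnj3, Kcnn3 and Kcnj2 among them, and 6 were lower, Kcnk6, Kcnab2, Kcnk1, Kcne4 and Kcna3 among them. Kcnt2 met the count rule without any DIO library (2, 5 and 2 counts), and Kcnn3 with 1 (10, 5 and 5 counts). Their place among the higher members is partly set by the rule, so these shares are a description only. Kcnn3 in SG replicate 3 (9 counts, 0.250 CPM) lay above DIO replicate 1 (10 counts, 0.243 CPM) only after scaling. Fitted levels in SG were higher for 24 members and lower for 20 (21 and 23 when scaled to library totals), and the members' median log2 fold change was 0.03, against 0.00 over all genes. Without control replicate 2, which these groups do not contain but which enters the shared spread, 8 members had an unadjusted p under 0.05 (12% of all genes) and 11 did not overlap (16.4%).

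Kcna3 and Kcnab2 were among the members that lay lower in SG. Kcna3 encodes the voltage-gated channel of T cells, and Kcnab2 a cytosolic beta subunit of that channel family. Kcna3 had 1.43, 0.524 and 0.516 CPM in DIO and 0.406, 0.338 and 0.305 CPM in SG, without overlap, and a log2 fold change of -1.23 (SE 0.73, adjusted p = 0.668), or -0.56 without DIO replicate 1. In controls it had 0.160, 0.969 and 0.120 CPM, so that control replicate 2 alone stood among the DIO values. Kcnab2 had 4.54, 2.96 and 2.48 CPM in DIO and 1.12, 1.71 and 1.75 CPM in SG, also without overlap (log2 fold change -1.12, SE 0.47, adjusted p = 0.532). Its control values were 2.34, 6.51 and 1.64 CPM, and control replicate 2 was again the highest. Between DIO and control, the log2 fold change was 0.97 (SE 0.72) for Kcna3 and -0.07 (SE 0.46) for Kcnab2, whose sign turned with library totals, with a replicate block and with some single replicates left out. The Kcna3 value depended on single libraries, from 0.29 without DIO replicate 1 to 2.52 without control replicate 2.

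Markers of lymphocytes were lower in the same SG libraries. The summed level of 6 T cell markers spanned 1.59 to 47.0 CPM in controls (the highest in control replicate 2), 10.9 to 24.9 CPM in DIO libraries and 3.45 to 4.47 CPM in SG libraries. That of 6 B cell markers spanned 0.433 to 99.95 CPM in controls, 12.7 to 35.5 CPM in DIO libraries and 2.62 to 5.69 CPM in SG libraries, with Pax5 and Cr2 at 0 in at least 1 library. In both lists all 6 markers of 6 lay lower in SG, with no overlap with DIO, and 0 passed the adjusted threshold. For 6 macrophage and dendritic cell markers the sum spanned 252 to 454 CPM in controls, 448 to 544 CPM in DIO libraries and 291 to 386 CPM in SG libraries. The part of these cells in the values of Kcna3 and Kcnab2 was not tested.

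For Kcnk6 the same markers can be set beside it. Control replicates 1 and 3 had 5.72 and 1.59 CPM of T cell markers (SG range 3.45 to 4.47). They had 7.37 and 0.433 CPM of B cell markers (SG range 2.62 to 5.69). Of macrophage and dendritic cell markers they had 298 and 252 CPM (SG range 291 to 386). Their Kcnk6 values were 33.4 and 29.0 CPM, above the SG range. Control replicate 2, with the most T cell marker RNA and 454 CPM of macrophage and dendritic cell markers, had 39.7 CPM, the highest Kcnk6 value of the 9. The DIO libraries had 448 to 544 CPM of macrophage and dendritic cell markers and 35.5 to 37.8 CPM of Kcnk6. The summed level of 6 ionocyte markers (Foxi1 and Ascl3 among them) spanned 154 to 180 CPM in controls, 166 to 187 CPM in DIO libraries and 194 to 217 CPM in SG libraries. The part of any cell type in the Kcnk6 values was not tested.

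**Figure D5:**
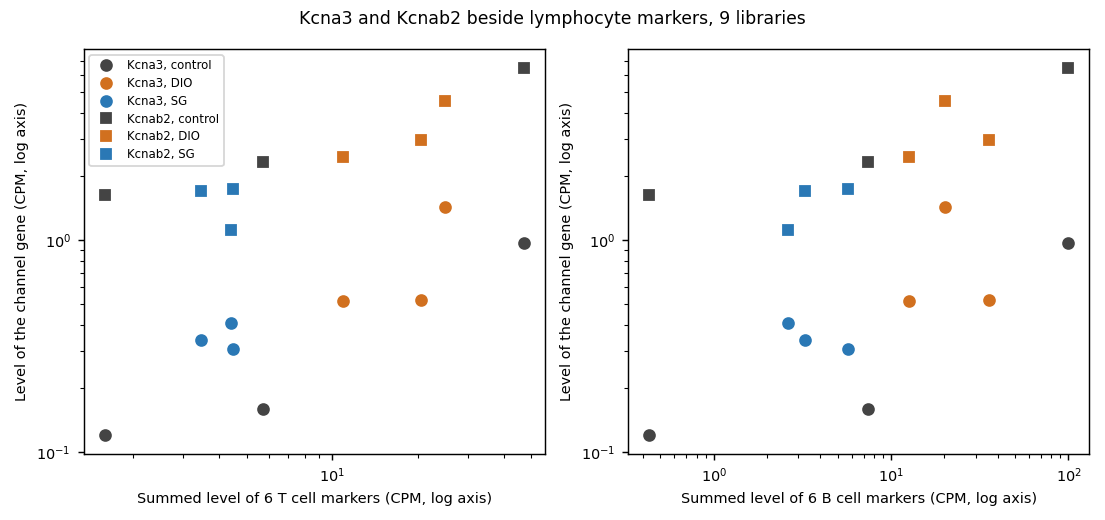
Level of Kcna3 (circles) and Kcnab2 (squares) against the summed level of 6 T cell markers (left) and 6 B cell markers (right), all in CPM on log axes, 1 point per library and gene. The DIO libraries and control replicate 2 lie to the upper right of the SG libraries. In both panels control replicate 1 lies to the right of every SG library and control replicate 3 to the left. For Kcna3 both (0.160 and 0.120 CPM) lie below every SG library. For Kcnab2 control replicate 1 (2.34 CPM) lies above the SG libraries and control replicate 3 (1.64 CPM) among them. The libraries share glands and depth, so the plot is a description.

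The third comparison set operated mice against controls. Kcnk6 had 33.4, 39.7 and 29.0 CPM in controls against 24.6, 20.95 and 22.8 CPM in SG, and the groups did not overlap. The log2 fold change was -0.58 (SE 0.11, adjusted p = 0.344, rank 13 of 14912 genes by p). Over the 15 alternatives the log2 fold change ran from -0.68 to -0.47 and the adjusted p from 0.00658, with DESeq2, to 0.772, and only DESeq2 passed the threshold. Kcnab2 had a log2 fold change of -1.20 (SE 0.47, adjusted p = 0.590), with groups that overlapped, and of -0.39 without control replicate 2.

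All 7 inward rectifiers had a higher fitted level in SG than in controls, and the median of the 7 log2 fold changes was 0.31. Over all genes tested, 7497 of 14912 were higher. Of the other subfamilies, 5 of 8 calcium- or sodium-activated, 8 of 16 voltage-gated, 2 of 6 tandem-pore-domain and 2 of 7 auxiliary members were higher. Kcnj10 turned negative without control replicate 3 and without SG replicate 3, and Kcnj11 without control replicate 2. For 3 of the 7 inward rectifiers the groups did not overlap, where 11.8% of all genes did not. Markers of epithelial cells were mixed. All 9 genes listed as duct markers lay higher in SG (median of their log2 fold changes 0.24, 2 without overlap). The duct list includes the sodium-potassium-chloride cotransporter gene Slc12a2 (log2 fold change 0.16), which is also in the list of channel partners below. Whether each listed gene is particular to ducts was not tested. Of 6 ionocyte markers, 5 lay higher, all 5 without overlap, and 1 lay lower without overlap. The median over the 6 was 0.31. Serous acinar markers were higher for 4 and lower for 2, myoepithelial markers higher for 1 and lower for 5. Parotid markers were higher for 1 and lower for 3. The part of these cells in the values of the inward rectifiers was not tested. Kcnj15 had 22.6, 24.0 and 25.8 CPM in SG against 18.9, 17.4 and 22.1 CPM in controls (log2 fold change 0.31, SE 0.11, adjusted p = 0.573). Kcnj16, a subunit that pairs with other inward rectifiers such as Kcnj10 or Kcnj15, had 25.1, 27.2 and 23.4 CPM in SG against 22.7, 17.2 and 22.0 CPM in controls (log2 fold change 0.29, SE 0.13, adjusted p = 0.590). The third was Kcnj3, a subunit of G protein-gated channels, with 3.23, 3.19 and 2.69 CPM in SG and 2.50, 1.26 and 1.97 CPM in controls. In each of these genes every SG value lay above every control value, by margins of under 1 CPM, and none passed the threshold. Without control replicate 2 the log2 fold change of Kcnj16 was 0.16. Kcnj8 and Kcnj11, the pore subunits of ATP-sensitive channels, had log2 fold changes of 0.22 (SE 0.21) and 0.50 (SE 0.82), and Kcnj10 of 0.07 (SE 0.33).

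Kcnq1, which pairs with Kcne1 or Kcne3, had 24.7, 28.9 and 26.0 CPM in SG and 22.0, 17.6 and 24.4 CPM in controls. All 3 SG values were higher, by a margin of under 1 CPM, with a log2 fold change of 0.32 (SE 0.14, adjusted p = 0.614), or 0.18 without control replicate 2. Kcnn3, a small-conductance calcium-activated channel, had 3, 2 and 5 counts in controls, 10, 5 and 5 in DIO and 11, 15 and 9 in SG. In CPM all 3 SG values lay above all 6 others, but SG replicate 3 (0.250 CPM) barely exceeded DIO replicate 1 (0.243 CPM), which had more raw counts. The log2 fold change against control was 1.88 (SE 0.58, adjusted p = 0.540) on counts that in controls lay around the floor of 3. No control library of Kcnn3 reached the 10 counts of the rule, which it met through 2 SG libraries and 1 DIO library, so its place among the members higher than control is set by the rule and is a description only. Kcnn4 averaged 451 ± 91.9 CPM in SG and 450 ± 76.4 CPM in controls (SD, n = 3), with a log2 fold change of 0.00 (SE 0.18). Kcnma1 averaged 111 ± 14.4 and 107 ± 13.1 CPM, and Kcnk1 69.2 ± 5.09 and 68.1 ± 3.32 CPM.

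No member passed the threshold between SG and control by edgeR (0 of 44, where 0% of all genes did). By DESeq2 1 passed, Kcnk6, where 0.382% of all genes did. At an unadjusted p under 0.05 there were 7 members (15.9%) against 8.1% of all genes. The groups did not overlap for 6 members (13.6%) against 11.8% of all genes, with Kcnk6 lower and Kcnn3, Kcnj15, Kcnj16, Kcnj3 and Kcnq1 higher in SG. Kcnn3 is in both counts, and none of its control libraries reached the 10 counts of the rule, so these shares are a description only. Here too 24 members had a higher and 20 a lower fitted level in SG, and their median log2 fold change was 0.03, against 0.00 over all genes. Without control replicate 2, 3 members had an unadjusted p under 0.05 (5.63% of all genes) and 9 did not overlap (20.8%).

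The remaining panel members were low or variable. Kcnn2, of the small-conductance calcium-activated family, averaged 2.73 ± 0.795 CPM in controls, 1.96 ± 0.348 CPM in DIO and 2.13 ± 0.356 CPM in SG. Kcnmb1, a BK beta subunit typical of smooth muscle, averaged 0.889 ± 0.543, 0.585 ± 0.280 and 0.556 ± 0.194 CPM in the same order. Kcne3 averaged 0.902 ± 0.0714, 0.714 ± 0.177 and 1.05 ± 0.327 CPM. Kcnj10 had 2.14, 2.02 and 2.32 CPM in DIO, above all 3 controls at 1.30, 1.87 and 0.986 CPM (log2 fold change 0.64, SE 0.33, adjusted p = 0.549). Over the 3 comparisons the log2 fold change ran from -0.48 to 0.12 for Kcnn2, from -0.67 to -0.07 for Kcnmb1 and from -0.34 to 0.55 for Kcne3. The Kcnmb1 values rest on control replicate 1, without which they were -0.0055 in DIO and -0.079 in SG against control. For none of these did the adjusted p reach 0.05 in any comparison.

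In GENCODE M21, exons of 18 of the 44 members overlap those of another gene, 17 of them on the opposite strand. Kcnq1 with Kcnq1ot1, Kcnj15 with Gm49643, Kcnk1 with Gm45875, Kcnma1 with 4930519K11Rik, Kcnj3 with Gm26794 and Kcnt2 with 4930590L20Rik are among them. The strand setting of the counting is not given in the sources used here, so reads of these pairs cannot be told apart. Kcnn4, Kcnk6, Kcnk5, Kcne1 and Kcnj16 are among the 26 members with no such overlap.

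Genes that work with the channels were read from a list of 48 partners, of which 37 were tested. None passed the threshold in either direction in any of the 3 comparisons by edgeR, and 4, 5 and 1 had an unadjusted p under 0.05 in DIO against control, SG against DIO and SG against control. These are 10.8%, 13.5% and 2.7% of the partners tested, against 10.3%, 8.93% and 8.1% of all genes. Lrrc26, the gamma subunit that lets BK channels open at resting voltages, averaged 129 FPKM beside the 6.38 FPKM of its pore partner Kcnma1. The sodium pump, which returns the potassium to the cell, was represented by its beta subunit gene Atp1b1 at 483 FPKM. The sodium-potassium-chloride cotransporter gene Slc12a2 averaged 189 FPKM, and the calcium-activated chloride channel gene Ano1 23.3 FPKM. Within this list the smallest adjusted p was that of Tmem38a, an intracellular cation channel gene named here after its values were seen. It had 31.9, 23.9 and 32.3 CPM in controls, 39.6, 48.2 and 49.2 CPM in DIO and 33.1, 31.2 and 34.1 CPM in SG. Every DIO library lay above all 6 others, with a log2 fold change of 0.64 (SE 0.12, adjusted p = 0.114) against control and -0.48 (SE 0.12, adjusted p = 0.409) in SG against DIO.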

How the data were processed

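The authors deposited whole-number counts per gene and FPKM values per gene for 9 libraries. Per the submitters' processing notes, HISAT2 and Salmon were used with build GRCm39. The annotation release, strand setting and handling of multi-mapped reads: not given in the sources used here. Deposited counts were tested with edgeR 4.0.16 in R 4.3.3 (TMM, filterByExpr by group, quasi-likelihood F test, Benjamini-Hochberg over 14912 genes), and DESeq2 1.42.0 served as an alternative. The code of the test was run on simulated counts with the same spread for every gene. Members differ in spread, so that run does not show how well changes in them are found, and no result here rests on it. Deposited FPKM values were used to compare levels between genes. The members and lists were chosen with earlier results of these data known. Members given with a fold change are, per comparison, those past the threshold, the 5 with the smallest p and a fixed panel; other members appear by level, range or lack of overlap. Alternatives were other scalings, no filter, DESeq2, a replicate block, only 2 groups, and each replicate left out. The values without control replicate 2 were added after seeing the data. Coding sequences and exon overlaps came by symbol from GENCODE M21, of build GRCm38, so no coordinates are printed. Some members, a partner gene and some sequences are not reported here; counts over the members include them.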

Additional observations from a re-analysis of the deposited data

How the results depend on the processing

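Of the counts of members past the threshold (0 in each comparison by edgeR), the count was 1, Kcnk6, for SG against DIO with no filter on low counts, with DESeq2 and with only the 2 groups fitted, and 0 to 1 as single replicates were left out (1 without control replicate 2). For SG against control it was 1 with DESeq2. Over all genes, DESeq2 called 194, 86 and 57 genes (DIO against control, SG against DIO, SG against control) where edgeR called 14, 0 and 0. With no filter edgeR called 37, 6 and 3, and with only the 2 groups fitted edgeR called 4, 179 and 0. Without control replicate 2 it called 140, 117 and 3, and as each replicate was left out in turn the counts ran from 0 to 140, 0 to 117 and 0 to 6. With the replicate block the count of members stayed at 0 in each comparison, and all genes gave 18, 0 and 0. The median log2 fold changes of the members were then 0.07, 0.03 and 0.04. After each gene's group mean was subtracted, log levels of same-numbered libraries correlated at -0.09 to 0.31 (Pearson). Libraries with different numbers were not compared in this way, so these values do not decide whether the numbers mark pairs. The numbers were not taken as pairs because the labels do not say that they mark a shared batch or litter. Scaling to library totals moved the median of all genes to 0.10 in DIO against control and -0.08 in SG against DIO. Of 60 gene and comparison pairs, 18 changed sign under some alternative. DIO against control: Kcnab2 was 0.012 with library totals and 0.10 with the replicate block. SG against control: Kcnn4 was -0.0020 with DESeq2 size factors, -0.0053 with no filter, -0.0020 with DESeq2, -0.0019 with the replicate block and -0.0096 with only 2 groups. Leaving out single replicates gave, for DIO against control, Kcnab2 -0.41 to 0.72, Kcne1 -0.069 to 0.41, Kcnj11 -0.40 to 1.62, Kcnj16 -0.026 to 0.19, Kcnj8 -0.10 to 0.16, Kcnk5 -0.050 to 0.17 and Kcnq1 -0.072 to 0.18. For SG against DIO it gave Kcnj11 -0.037 to 0.75, Kcnmb1 -0.36 to 0.34 and Kcnn2 -0.0054 to 0.26. For SG against control it gave Kcna3 -0.70 to 1.30, Kcne1 -0.45 to 0.037, Kcne3 -0.044 to 0.41, Kcnj10 -0.25 to 0.33, Kcnj11 -0.062 to 1.96, Kcnk1 -0.034 to 0.073, Kcnma1 -0.056 to 0.12 and Kcnn4 -0.17 to 0.14. The cause was not tested. Members with a few counts per library, such as Kcnn3 and Kcnt2, are limited by depth.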

Other observations

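Some channel genes outside the rule were near the floor in these glands. Of the 39 protein-coding Kcn genes under the count rule, Kcnmb4, a BK beta subunit, had 0 to 7 counts per library and 25 in all. Kcne2, an auxiliary subunit related to Kcne1 and Kcne3, had 1 to 8 counts per library and 42 in all. Kcnq1ot1, the antisense transcript of the imprinted Kcnq1 region, lay outside the rule because it is non-coding and not for its level. It had 89, 79 and 83 counts in controls, 61, 63 and 36 in DIO and 70, 80 and 45 in SG. These counts are not scaled for depth.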
